A study of Mus musculus with 2 samples.

Results

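The small leucine-rich proteoglycans (SLRPs) examined here are 10 genes of the extracellular matrix, namely Dcn, Bgn, Aspn, Lum, Fmod, Prelp, Omd, Kera, Ogn and Epyc. They were chosen by name, as entries whose gene symbol matched, and each of the 10 had 1 entry among the 29126 entries of the deposited expression table. Messenger RNA was sequenced in 1 library of Dnmt1+/+ and 1 library of Dnmt1-/- mouse embryonic fibroblasts (MEFs), by strand-specific mRNA-seq with 50 bp single-end reads. In the cells called Dnmt1-/- both copies of Dnmt1, the gene of the maintenance DNA methyltransferase, are a hypomorphic allele (Dnmt1 n/n). Both lines also lack p53 (trp53-/-), so the Dnmt1+/+ cells are trp53-/- cells too. The age and sex of the embryos are not given in the sources used here, the labels give the strain as unknown, and each genotype is 1 cell line, so genotype and line cannot be told apart. The comparison asks whether transcript levels of these genes differed between DNA hypomethylated and control fibroblasts. With 1 library per genotype there is no spread between replicates, no p-value is given, and the differences describe these 2 libraries.

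SLRPs are secreted proteins built from a string of leucine-rich repeats, and most carry chondroitin, dermatan or keratan sulphate chains. They sit on collagen fibrils, where they control the thickness, spacing and cross-linking of fibrils, and several also bind growth factors of the TGF-beta family. Fibroblasts of skin, tendon and other connective tissue are a main source of decorin, biglycan and lumican, while keratocan is a product of the cornea and epiphycan of growth plate cartilage. By sequence they fall into classes, of which class I (Dcn, Bgn, Aspn), class II (Lum, Fmod, Prelp, Omd, Kera) and class III (Ogn, Epyc) are represented here.

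Levels are given as RPKM, a read number per kilobase of transcript and per set number of mapped reads, which allows genes to be compared with each other. A change is the difference of log2(RPKM + 0.1) between Dnmt1-/- and Dnmt1+/+ MEFs, a scale that understates the change of genes with low values. Genes were kept where the entry had a gene symbol and the Cuffdiff status OK and at least 1 RPKM was reached in one library or the other. A gene that reached 1 RPKM in 1 library alone could be kept only as higher in that library. Among such genes below are Fmod, Podn, Bmp2, Mmp3, Ptprz1 and Col2a1. Of the 11244 genes kept, 19.4% differed more than 2-fold (8.47% upward and 10.9% downward in Dnmt1-/- MEFs), and the median log2 change was -0.14. Read counts per gene were not derived here, so the counting error of a gene is not given. Dnmt1 itself went from 65.2 to 14.5 RPKM, in the direction of its label.

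The promoters of the members with the highest level, the largest rise and the largest fall are shown because the cells compared differ in CpG methylation, and these sequences show how few CpGs the promoters hold. Each is the 250 bases before the annotated start, 5′ to 3′ on the strand of the gene, in NCBIM37 (the mm9 assembly), with CpG dinucleotides in capitals.
Bgn, chrX:70728691-70728940, plus strand: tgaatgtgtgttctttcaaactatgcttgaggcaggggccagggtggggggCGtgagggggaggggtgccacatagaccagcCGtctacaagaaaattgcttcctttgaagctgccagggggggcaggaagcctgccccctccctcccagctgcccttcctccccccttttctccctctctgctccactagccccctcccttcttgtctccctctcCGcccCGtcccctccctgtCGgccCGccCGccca
Fmod, chr1:135933581-135933830, plus strand: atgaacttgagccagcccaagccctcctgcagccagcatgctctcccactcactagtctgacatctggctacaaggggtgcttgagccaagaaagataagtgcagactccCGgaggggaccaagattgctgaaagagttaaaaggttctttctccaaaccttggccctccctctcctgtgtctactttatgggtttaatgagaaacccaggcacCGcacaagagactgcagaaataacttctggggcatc
Ogn, chr13:49703190-49703439, plus strand: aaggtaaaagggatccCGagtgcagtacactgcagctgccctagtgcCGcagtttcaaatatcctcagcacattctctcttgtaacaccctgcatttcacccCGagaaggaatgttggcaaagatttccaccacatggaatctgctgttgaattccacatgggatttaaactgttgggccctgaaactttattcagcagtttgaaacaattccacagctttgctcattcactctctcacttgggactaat

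The SLRP profile of these fibroblasts was dominated by Bgn in both libraries, whereas Dcn was low and Lum was close to 0. Bgn encodes biglycan, which binds collagen fibrils and TGF-beta. It was at 465.7 RPKM in Dnmt1+/+ and 721.1 RPKM in Dnmt1-/- MEFs, and it made up 86.6% and 93.0% of the summed RPKM of the 10 members. In level it exceeded 99.2% of the genes kept in Dnmt1+/+ and 99.6% in Dnmt1-/- MEFs. In Dnmt1+/+ MEFs Ogn and Aspn followed, then Omd and Dcn, and the other 5 members were under 1 RPKM. In Dnmt1-/- MEFs the order after Bgn was Aspn, Fmod, Ogn, Omd and Dcn, and 4 members were under 1 RPKM. No spread is known for these values, and the places of Ogn and Omd, whose levels had a ratio of 1.01 there, cannot be told apart.

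**Figure D1:**
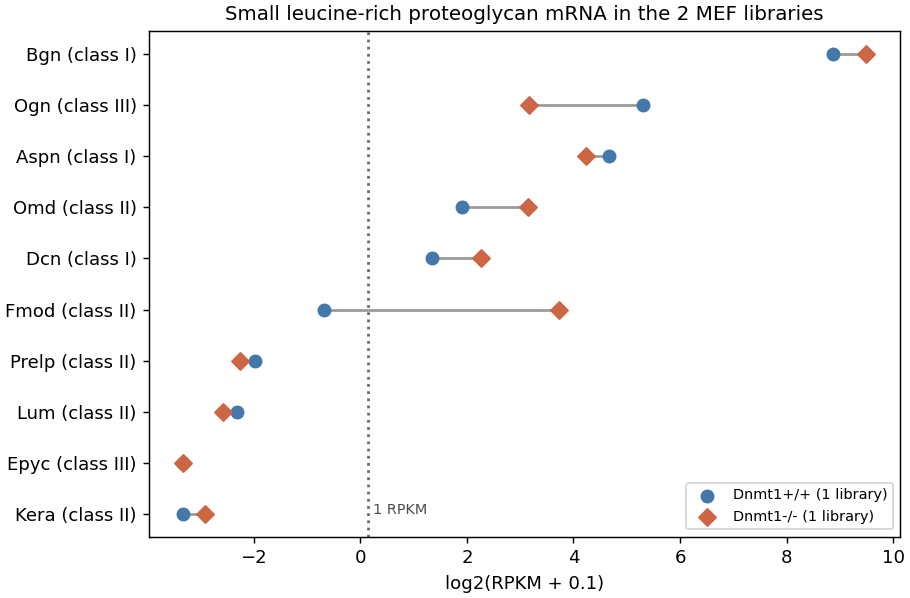
Level of each of the 10 SLRP genes on the log2(RPKM + 0.1) scale, with a circle for the Dnmt1+/+ library and a diamond for the Dnmt1-/- library, ordered by the Dnmt1+/+ level. Fmod shows the longest line to the right and Ogn the longest to the left, Bgn lies far above the others in both libraries, and the Epyc points coincide at 0 RPKM.

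Of the 10 members, 6 were kept. In Dnmt1-/- MEFs 2 of these, Fmod and Omd, were more than 2-fold higher, and 1, Ogn, was lower by more than 2-fold. The shares among all genes kept were 8.47% and 10.9%. Bgn, Dcn and Aspn stayed within 2-fold. The median log2 change of the 6 was 0.78, against -0.14 over all genes kept. Fmod passed the minimum through its Dnmt1-/- value alone, so it could be kept only as a gene that was higher there. The 4 members that were not kept were under 1 RPKM in both libraries. The members did not move together. Within class I, Bgn and Dcn were higher and Aspn lower in Dnmt1-/- MEFs. Of class II, Fmod and Omd were higher, while Lum and Prelp, under 1 RPKM in both libraries, had log2 changes of -0.26 and -0.28.

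Fmod encodes fibromodulin, which binds type I collagen on the fibril surface and modulates its cross-linking. It was at 0.524 RPKM in Dnmt1+/+ and 13.1 RPKM in Dnmt1-/- MEFs, which is a log2 change of 4.40. A larger rise was found for 129 of the genes kept. In level it went from above 3.33% to above 56.6% of the genes kept, so that it was a gene of middle expression in the Dnmt1-/- library. With a pseudocount of 1 in place of 0.1 its log2 change was 3.21.

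Omd encodes osteomodulin, a keratan sulphate proteoglycan known from bone and dentine matrix. It was at 3.63 RPKM in Dnmt1+/+ and 8.77 RPKM in Dnmt1-/- MEFs, a log2 change of 1.25. The other class II members, Lum, Prelp and Kera, were under 1 RPKM in both libraries. Lum, which encodes lumican of skin and corneal fibrils, was at 0.0997 and 0.0668 RPKM, with the status NOTEST. Prelp, whose product prolargin links basement membranes to the matrix, was at 0.153 and 0.108 RPKM. Kera, the keratocan gene, was listed at 0 in Dnmt1+/+ and at 0.0317 RPKM in Dnmt1-/- MEFs, also with the status NOTEST.

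Ogn encodes osteoglycin, also called mimecan, a class III SLRP of bone and connective tissue. It was at 39.6 RPKM in Dnmt1+/+ and 8.89 RPKM in Dnmt1-/- MEFs, so it was 4.46-fold lower, a log2 change of -2.14. A larger fall was found for 353 of the genes kept. It was the second most abundant member in Dnmt1+/+ MEFs and level with Omd, after Bgn, Aspn and Fmod, in Dnmt1-/- MEFs. The other class III member, Epyc, was listed at 0 in both libraries.

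Among the class I genes, Bgn was 1.55-fold higher in Dnmt1-/- MEFs, a log2 change of 0.63. Dcn encodes decorin, which limits the lateral growth of collagen fibrils and binds TGF-beta. It was at 2.43 RPKM in Dnmt1+/+ and 4.71 RPKM in Dnmt1-/- MEFs, a log2 change of 0.93 that lay just under 2-fold and passed it, at 1.07, relative to the median of all genes kept. Aspn encodes asporin, which binds collagen and carries a run of aspartate residues in place of sugar chains. It was at 25.4 RPKM in Dnmt1+/+ and 18.7 RPKM in Dnmt1-/- MEFs, a log2 change of -0.44. The ratio of Bgn to Dcn was 192.0 in Dnmt1+/+ and 153.3 in Dnmt1-/- MEFs, per transcript length, so biglycan mRNA far exceeded decorin mRNA in either line. Bgn lies on the X chromosome, where the 394 genes kept had a median log2 change of -0.39, against -0.13 for the 10850 others. Xist, also on the X chromosome, was at 0.00648 and 37.0 RPKM, and its part in the level of Bgn was not tested.

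**Figure D2:**
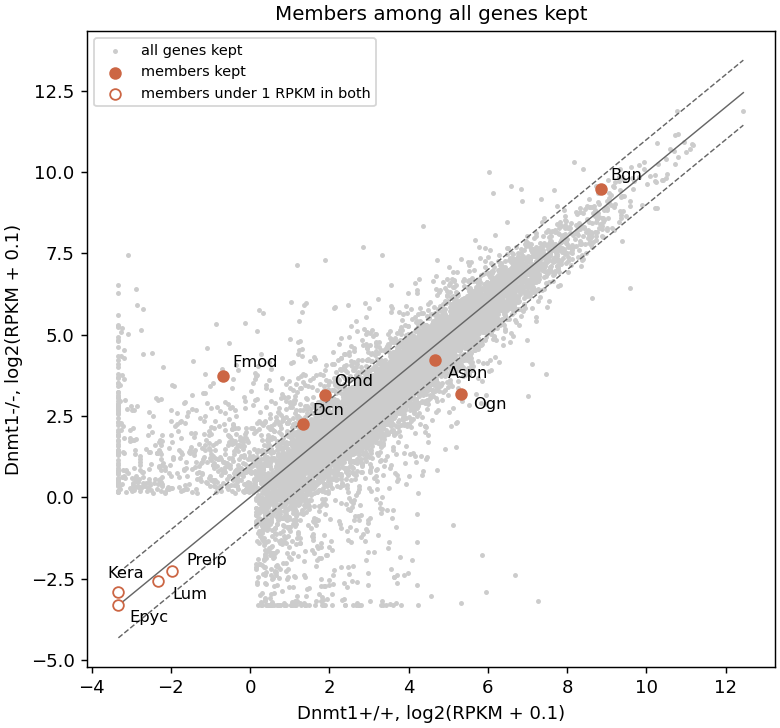
RPKM of all 11244 genes kept (grey) and of the 10 members (orange, open where under 1 RPKM in both libraries), Dnmt1+/+ on the x axis and Dnmt1-/- on the y axis, both as log2(RPKM + 0.1). The solid line marks equal values and the dashed lines a 2-fold difference. Fmod and Omd lie above the upper dashed line, Ogn below the lower, and Bgn, Dcn and Aspn between them.

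All members but Bgn lie in 3 chromosomal clusters, and each of them held neighbours with different values. On chromosome 10 these were Dcn and Lum, while Lum, Kera and Epyc were all close to 0. On chromosome 13 (NCBIM37/mm9, GENCODE gene bounds) Aspn spans 49639812 to 49662926, Omd 49678135 to 49687978 and Ogn 49703440 to 49719869, all on the plus strand and 15.2 and 15.5 kb apart. Omd, in the middle, was 2.42-fold higher in Dnmt1-/- MEFs, and Ogn, which starts 15.5 kb after it, was 4.46-fold lower. The ratio of Ogn to Omd was thereby 10.9 in Dnmt1+/+ and 1.01 in Dnmt1-/- MEFs, a comparison within each library that no scaling of the libraries alters. The ratio of Ogn to Aspn was 1.56 and 0.475. All 3 genes lie within Cenpp, a gene of a kinetochore protein on the minus strand, and share 0 exonic bases with it. Cuffdiff placed them in 1 joint locus with Cenpp, which was at 8.12 and 11.1 RPKM, and with a pair of entries without a gene symbol that went from 1.24 to 4.27 and from 6.28 to 2.44 RPKM. Whether strand was used in assigning reads is not given in the sources used here. Ecm2, an SLRP-related gene at the other side of Aspn, was at 0.0678 and 0.161 RPKM. The nearest kept genes outside the cluster, Ippk and Nol8, had log2 changes of 0.26 and -0.61.

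On chromosome 1, Prelp spans 135806881 to 135817991 on the minus strand and Fmod 135933831 to 135944854 on the plus strand. Prelp stayed under 1 RPKM while Fmod reached 13.1. Optc, the gene of the eye SLRP opticin, is 2.31 kb from Prelp on its far side, and was at 1.76 RPKM in Dnmt1+/+ and 5.46 RPKM in Dnmt1-/- MEFs, a log2 change of 1.58. The nearest kept gene after Fmod, Btg2, was at 2.17 and 1.03 RPKM. Between Prelp and Fmod the table holds 5 entries without a gene symbol, of 112 to 459 bases. The 2 nearest to Fmod, which end 28.6 and 29.4 kb before its start, were at 7.01 and 0.774 RPKM in Dnmt1+/+ and at 64.1 and 7.79 RPKM in Dnmt1-/- MEFs. RPKM values of such short entries rest on few bases. The other 3, between 55.4 and 56.7 kb before Fmod, had log2 changes of 1.37, -0.76 and 1.22.

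On chromosome 10, Dcn, Lum, Kera and Epyc follow each other on the plus strand from 96942245 to 97145088. Dcn was the one member of this cluster above 1 RPKM in either library, and Lum starts 47.4 kb after its end. The nearest kept genes on either side lie 856.8 kb (Btg1) and 1233 kb (Atp2b1) away.

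**Figure D3:**
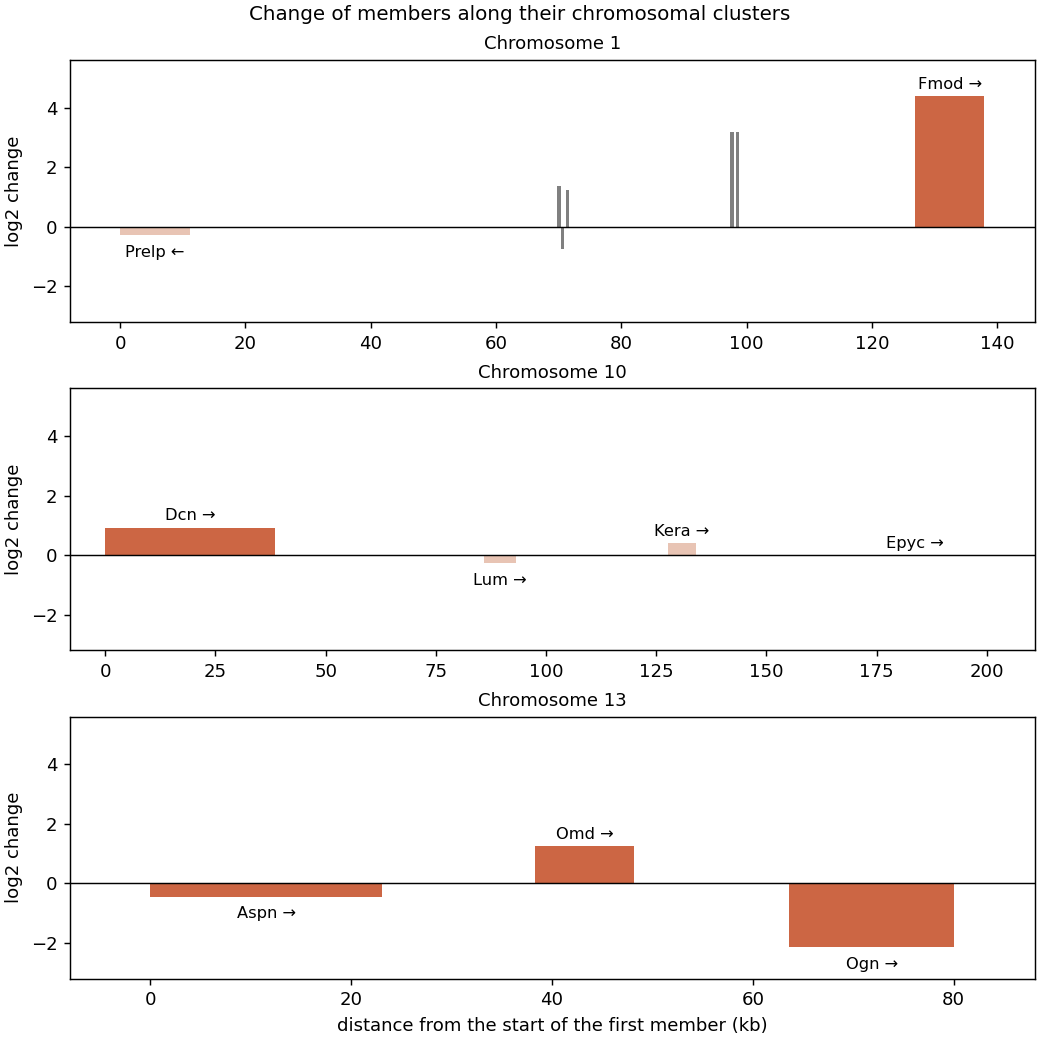
Log2 change, Dnmt1-/- minus Dnmt1+/+, of the members along the clusters on chromosomes 1, 10 and 13, with bar width showing the extent of each gene in kb from the start of the first member and arrows its direction of transcription. Dark orange bars are members that reached 1 RPKM, pale bars members that did not, and grey bars, drawn wider than their extent, the 5 entries without a symbol between Prelp and Fmod, while Cenpp and Ecm2 are not drawn. Omd and Ogn, 15.5 kb apart, point in opposite directions, and Fmod stands out at 4.40.

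The members shared a feature that did not enter their choice, which is a low number of CpGs before the start. In the 250 bases upstream, the 10 members held between 1 and 7 CpGs, with a median of 2. Over 10976 genes kept with an annotated start the median was 15 and the lower quartile 9, so that all 10 members were below the lower quartile. At most 5 CpGs were found in 9 of the 10 members and in 14.2% of the promoters of genes kept. Genes that were not kept held fewer, and 4 of the members were not kept. Over the 18668 protein-coding genes of the table with an annotated start, kept or not, the median was 10, the lower quartile 3 and the share with at most 5 CpGs 34.3%, and over the 8035 that were not kept the median was 4. Bgn had the most CpGs of the members, 7, most of them close to the start in the sequence above, followed by Dcn and Prelp with 5 each. Fmod had 2, Omd 1 and Ogn 3 CpGs, so the genes that were higher and the one that was lower in Dnmt1-/- MEFs were alike in this respect. Prelp, Lum, Kera and Epyc, with 5, 2, 1 and 2 CpGs, stayed under 1 RPKM in both libraries. At the starts that RefSeq gives, which were found for 8 members (not for Dcn and Lum), the number ranged from 0 to 7. DNA methylation at these promoters was not analysed here.

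Of the short promoter motifs searched on both strands, GGGCGG, the core of a GC box, was found in Bgn and Dcn, against 57.5% of the promoters of genes kept. TATAAA was found in Aspn alone, against 6.38%. CCAAT was found in Aspn and Kera, against 36.3%, and TGAGTCA, an AP-1 site, in none of the members, against 3.11%. The letters GGGCGG themselves hold a CpG, and none of these motifs contains another.

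**Figure D4:**
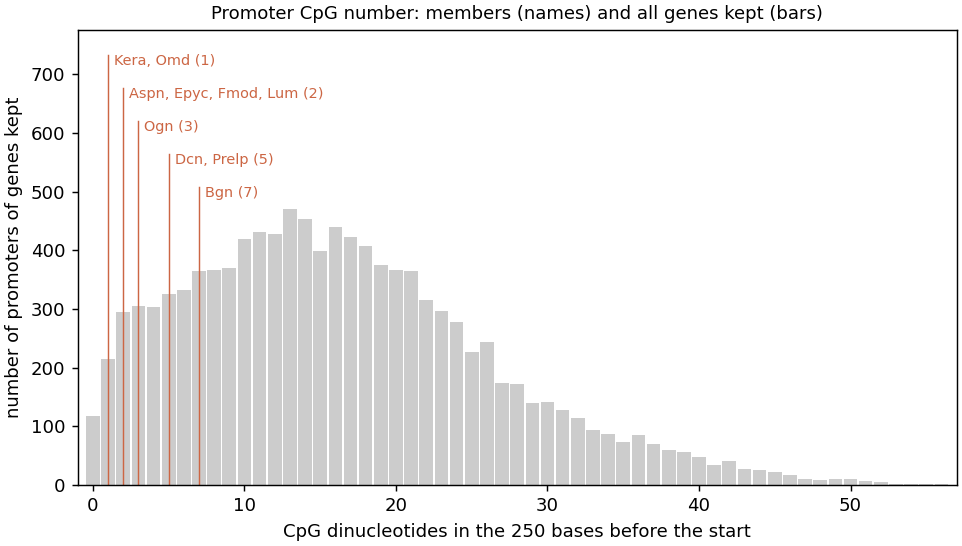
Number of CpG dinucleotides in the 250 bases before the annotated start (x axis) for the promoters of the genes kept (grey bars, number of promoters on the y axis) and for the 10 members (orange lines, with the names and the number of CpGs in parentheses). All members lie between 1 and 7, to the left of the median of 15.

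The remaining SLRP genes, which belong to the same superfamily, also held higher and lower genes. Of 8 such genes, 5 were kept. Past 2-fold, 2 were higher and 1 lower in Dnmt1-/- MEFs, with a median log2 change of -0.24. Podnl1, a podocan-like gene, went from 8.92 to 32.6 RPKM, and Optc is given above. Podn, which encodes podocan, went from 1.45 to 0.416 RPKM. It passed the minimum through its Dnmt1+/+ value alone, so it could be kept only as a gene that was lower in Dnmt1-/- MEFs. With a pseudocount of 1, or with a mean RPKM of at least 1, no gene of this list was lower by more than 2-fold. Tsku, which encodes tsukushi, was at 5.99 and 5.05 RPKM and Chadl at 1.07 and 0.853. Chad, which encodes the cartilage protein chondroadherin, was at 0.349 and 0.0911 RPKM, Nyx was at 0.00939 and 0.0252, and neither was kept.

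Of 15 larger matrix and cell surface proteoglycans kept, 3 were higher and 2 lower by more than 2-fold, and the median log2 change was -0.03. Gpc1 and Gpc2, which encode glypicans, went from 20.6 to 50.3 and from 2.27 to 7.20 RPKM. Cspg4, the gene of the NG2 proteoglycan, went from 4.35 to 10.9 RPKM. Ptprz1 went from 3.40 RPKM to a listed 0, and Col18a1, a basement membrane collagen with heparan sulphate chains, from 8.75 to 3.16. The most abundant, Hspg2 (perlecan), was at 82.7 and 80.8 RPKM, followed by the syndecans Sdc2, at 74.0 and 56.6, and Sdc4, at 41.8 and 58.9.

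Enzymes that build and sulphate the sugar chains of proteoglycans gave 24 entries kept, of which 18 (75%) were within 2-fold, against 80.6% of all genes kept. Of the others, 4 were higher and 2 lower in Dnmt1-/- MEFs, and the median log2 change was -0.19. Chst11 and Chst12, chondroitin 4-O-sulphotransferases, were higher in Dnmt1-/- MEFs by log2 changes of 1.68 and 1.19, to 5.03 and 28.6 RPKM. Further sulphotransferases that act on keratan sulphate or related chains differed in opposite directions, with Chst2 at 3.67 and 12.1 RPKM and Chst1 at 9.73 and 2.09. One of the entries of Chst15 went from 2.82 to 1.32 RPKM. Dse, which converts chondroitin to dermatan sulphate, was at 23.7 and 21.7 RPKM, the linker enzyme B3gat3 at 24.3 and 20.3, and the chondroitin polymerizing factor Chpf at 15.9 and 24.5.

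Collagens of the fibrils and associated with them, to many of which SLRPs bind, were listed together with enzymes that modify collagen. Of the 11 collagen genes kept, 2 were higher and 3 lower by more than 2-fold, with a median log2 change of -0.07. The 4 enzyme genes, Lox, P4ha1, Plod1 and Plod2, were within 2-fold. Col1a1 and Col1a2, the chains of type I collagen, were at 1448 and 1241 RPKM in Dnmt1+/+ and at 897.7 and 475.9 RPKM in Dnmt1-/- MEFs. Col6a2, of the microfibrillar type VI collagen, was at 246.5 and 366.7 RPKM. Col5a2 went from 90.1 to 202.2 RPKM and Col12a1 from 41.9 to 89.6. Col11a1 went from 33.3 to 4.45 RPKM, and Col2a1, the main collagen of cartilage, from 6.40 to 0.0661. The ratio of Bgn to Col1a1 was 0.322 in Dnmt1+/+ and 0.803 in Dnmt1-/- MEFs.

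Among 16 SLRP receptors and ligands kept, 2 were higher and 1 lower by more than 2-fold, with a median log2 change of 0.43. Bmp2, a bone morphogenetic protein, was at 0.0164 RPKM in Dnmt1+/+ and 6.44 RPKM in Dnmt1-/- MEFs, so it could be kept only as a higher gene. Cd14, a co-receptor of toll-like receptors, went from 1.51 to 3.23 RPKM, and the TGF-beta receptor gene Tgfbr1 from 6.49 to 3.16. The most abundant were the integrin chain Itgb1, at 319.5 and 439.0 RPKM, the endocytic receptor Lrp1, at 91.1 and 117.1, and Wisp1, at 39.4 and 27.6. Of the 7 protease genes kept, 1 was higher and 1 lower by more than 2-fold, and the median log2 change was -0.16. Mmp3 went from 0.0896 to 1.38 RPKM and Adamts4, an aggrecanase, from 4.22 to 1.57, while Mmp2 and Mmp14 were high in both libraries, at 298.2 and 109.8 RPKM in Dnmt1+/+ and 214.0 and 164.0 in Dnmt1-/- MEFs. Bmp1, the procollagen C-proteinase that also trims the biglycan precursor, was at 34.4 and 33.3 RPKM. None of 21 ubiquitously expressed genes was more than 2-fold different, and their median log2 change was -0.0047. Among them Rplp0 and Ppia were at 1361 and 239.1 RPKM in Dnmt1+/+ and at 864.0 and 267.6 RPKM in Dnmt1-/- MEFs.

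**Figure D5:**
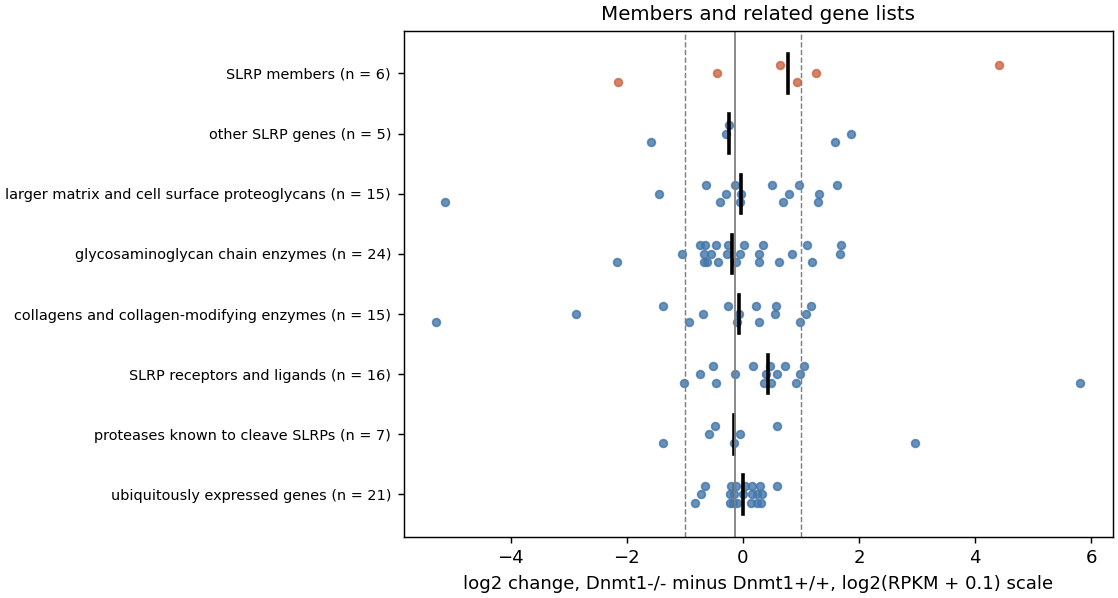
Log2 change of each gene kept (points) and the median (black bars) in the SLRP members, 6 related gene lists and the ubiquitously expressed genes, with the number of entries kept in parentheses. The grey line is the median of all genes kept, -0.14, and the dashed lines mark a 2-fold difference. Points of the members spread from -2.14 to 4.40 and those of the ubiquitously expressed genes stay within -0.82 to 0.58.

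With 2 libraries, likeness between genes can only be a closeness of both levels. The genes nearest to Bgn on the log2 scale were Eif5a, Cnn2 and Lmna, and those nearest to Aspn were Igf2bp3, 2210013O21Rik and Sacm1l. Nearest to Ogn were Ccnb2, at 40.4 and 9.19 RPKM, Fkbp11 and Tgfbi.

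The labelled cell type was checked against marker genes. Of 12 fibroblast markers, 12 reached 1 RPKM in Dnmt1+/+ and 11 in Dnmt1-/- MEFs, with summed levels of 6684 and 5412 RPKM. The exception, Thy1, was at 4.84 and 0.129 RPKM. Of 8 cartilage markers 2 reached 1 RPKM in each library, Sox9 in both, with sums of 15.7 and 10.9 RPKM, and Acan was at or near 0 in both, although Col2a1 was lower and Comp, at 0.344 and 4.96 RPKM, was higher in Dnmt1-/- MEFs. Of 8 bone markers 2 and 1 reached it, with sums of 8.24 and 7.38 RPKM and Ibsp listed at 0 in both. Of 4 tendon markers 2 reached it in each library, with sums of 25.2 and 20.8 RPKM. Scx was at 23.1 and 18.4, Tnmd went from 1.20 to 0.0599 and Mkx, in the other direction, from 0.896 to 2.31. Thbs4 was listed at 0 in both. Macrophage and blood markers went from 0 to 2 of 5, with sums of 0.666 and 9.73 RPKM, carried by Csf1r and Cd68, and Ptprc was listed at 0 in both. Fat markers went from 1 to 2 of 5, with sums of 2.50 and 12.6 RPKM, carried by Fabp4 and Pparg. Lpl and Adipoq, under 1 RPKM in both libraries, were lower in Dnmt1-/- MEFs. Epithelial markers went from 0 to 1 of 6, with sums of 0.363 and 2.19. The entry that reached 1 RPKM joins Krt14 with Krt17, and Cdh1, Epcam and Krt5, under 1 RPKM in both libraries, were lower in Dnmt1-/- MEFs. Smooth muscle markers reached 1 RPKM in 5 of 7 entries in each library, with sums of 2056 and 2144 RPKM, and no endothelial marker did, with sums of 0.498 and 0.711. The part of these differences in the levels of Fmod, Omd and Ogn was not tested, and in bulk RNA fewer cells of a type cannot be told apart from less RNA per cell.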

How the data were processed

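The authors aligned the reads with Tophat (mm9), built transcript models with Cufflinks and estimated their abundance with Cuffdiff. The deposited table gives for each entry an RPKM value per library and a status. Program versions, any further scaling of the libraries, and whether RNA preparations were pooled into a library are not given in the sources used here. RPKM holds no counts. The paper's supplement lists the number of mapped reads of each library, but read counts per gene were not derived from it. Intervals and detection limits are therefore not given.

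From these values, log2(RPKM + 0.1) and its difference between libraries were computed. Entries with a symbol and status OK that reached 1 RPKM in either library were kept, and a call is a difference of more than 2-fold. The members, gene lists, thresholds and the promoter counts were chosen with earlier results of these data known. The genes named are all SLRP genes and, from each list, up to 3 past 2-fold in each direction and the 3 of highest level, except that 1 gene is not reported here. Comp, Thy1, Tnmd and the other markers given singly, and the ratios between genes, were chosen after their values were seen. Gene bounds and promoters came from NCBIM37 and GENCODE, and a second set of starts from RefSeq (GRCm38). Alternatives were other pseudocounts (1 and 0.01), other filters, subtraction of a median change, a 1.5-fold threshold, and entries of any status. Python 3.11.15, numpy 2.4.6, pandas 2.3.3 and matplotlib 3.10.9 were used. ChIP, methylation and array data of the study were not analysed here.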

Additional observations from a re-analysis of the deposited data

How the results depend on the processing

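Fmod and Omd were more than 2-fold higher and Ogn more than 2-fold lower under each of the 8 alternatives tried. Of these, dropping the filter on low values, entries of any status, the 1.5-fold threshold and a pseudocount of 0.01 could only add calls and not undo them. Both medians that were subtracted were negative, so centring could undo the call of Ogn but not those of Fmod and Omd. Dcn joined the higher genes once changes were centred on the median of all genes kept. Centring moved the split of all genes kept from 8.47% higher and 10.9% lower to 9.71% and 8.58%. With a 1.5-fold threshold, which admits smaller differences by construction, 4 members were higher, namely Bgn, Dcn, Fmod and Omd. Of all genes kept, 14.1% were higher and 23.7% lower at this threshold. The entries counted as changed were then 9 for the larger proteoglycans, 13 for the sugar chain enzymes and 7 for the receptors and ligands. At 2-fold these were 5, 6 and 3. The list of collagens and collagen-modifying enzymes gave 8 (7 collagens and Lox) against 5 at 2-fold, and the ubiquitously expressed genes 3 against 0. With a pseudocount of 1 the receptors and ligands numbered 1, and with a mean RPKM of at least 1 the proteases numbered 1 in place of 2. The log2 change of Kera, under 1 RPKM in both libraries, was 0.40 with a pseudocount of 0.1 and 2.06 with 0.01. No paired analysis was possible because each genotype has 1 library. For the same reason no library could be left out. Read counts were not derived from the RPKM values, so no depth limit was set.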
